A study of Mus musculus with 3 samples.

Results

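The genes described here are 8 chemokine receptor genes of the mouse, Cx3cr1, Ccr2, Ccr1, Ccr7, Cxcr2, Cxcr4, Cxcr6 and Ccrl2, picked by symbol from a table of 27998 genes. They are part of a list of 24 genes of the chemokine receptor family, and Ccrl2 is counted among its atypical members, which bind ligand without the usual signalling. Their transcripts were counted in single cells of the brain without the cerebellum, sorted by flow cytometry for Cd11b, an integrin of myeloid cells, and sequenced with the 10x Chromium 3′ v2 chemistry. All animals were C57BL6J females aged 5 months, and the labels name no altered allele. Ctrl was 1 naïve mouse. D0 was a pool of 2 mice at the end of 14 days on food with 1200 mg/kg PLX5622, a drug that blocks the receptor Csf1r and thereby depletes microglia. D2 was 1 mouse that had the same 14 days of drug and then 2 days of control food. With 1 library per group, and animals pooled in D0, no spread between animals can be had.

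The cells of the 3 libraries carry barcodes that end in 1, 2 or 3, and no label used here ties these endings to Ctrl, D0 or D2. They are called library 1, library 2 and library 3, their values are set side by side, and no comparison of drug with control and no p-value is given. The libraries held 1263, 599 and 287 cells with 6410990, 4022293 and 2831118 molecules (unique molecular identifiers, UMIs), and medians of 3662, 6188 and 8172 UMIs per cell. No barcode was shared between libraries. After filtering, 2135 cells remained in 15 clusters, which were named from marker genes that include no chemokine receptor, and all 24 receptor genes were left out of the clustering. A level is the UMIs of a gene per 1000000 UMIs (CPM) of the summed cells. Each captured transcript gives 1 UMI near its 3′ end, so levels of different genes were set beside each other without division by length. Differences in capture between genes were not corrected for. Each level is followed by its exact 95% interval and each share of cells by its percentage and the interval of that percentage. These intervals cover counting error only. Where a count is 0, the level or share that 3 counts would give is named as the upper limit.

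The labels call the cells of every sample microglia. By their markers, 1071 of 1261 kept cells of library 1 (84.9%), 65 of 594 of library 2 (10.9%) and 2 of 280 of library 3 (0.714%) were microglia-like. The rest were like border-associated macrophages (100 cells, all in library 1), dendritic cells (329), mature dendritic cells (57), monocytes (90), non-classical monocytes (66), neutrophils (85), natural killer (NK) cells (125) and mast cells or basophils (7), and 3 clusters with 138 cells were left unnamed. The largest unnamed cluster, cluster 13, passed 6 microglia markers, so any microglia in it are missing from the microglia-like counts. Several clusters came mostly from 1 library and may be that library rather than a cell type. These are the border-associated-macrophage-like cluster, the mature-dendritic-like cluster (52 of 57 cells in library 2) and microglia-like clusters 0 (427 of 467 cells in library 1), 1 (20 of 21 in library 2) and 2 (643 of 650 in library 1). Microglia-like cluster 0 was led by P2ry13 and P2ry12, cluster 2 by Adamts1, Hk2 and Gem with the stress-induced cytokine Gdf15 among its 10 leading genes, and cluster 1 by Spp1, Apoe and Cst7, genes known from activated microglia.

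Chemokine receptors are G-protein-coupled receptors that steer leukocytes along gradients of small secreted proteins, the chemokines. Cx3cr1 binds fractalkine (Cx3cl1), a ligand made by neurons, and is a standard marker of microglia and of non-classical, patrolling monocytes. Ccr2 binds Ccl2 and its relatives and takes classical monocytes out of the bone marrow and into inflamed tissue. The pair is widely used to tell resident microglia from cells that came from blood. Ccr1 and Cxcr2 draw neutrophils and other myeloid cells to sites of inflammation, Cxcr4 holds cells in the marrow through Cxcl12, Ccr7 guides mature dendritic cells to lymph nodes, and Cxcr6 is found on resident lymphocytes and binds Cxcl16. Ccrl2 holds chemerin (Rarres2) at the cell surface and presents it to other cells.

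Of the 24 receptor genes, 15 lie on chromosome 9 of GRCm38 (the same build as mm10), among them 5 of the 8 members. Cxcr6 (chr9:123806475-123811760, plus strand), Ccr1 (chr9:123962124-123968692, minus strand) and Ccr2 (chr9:124101950-124113557, plus strand) stand near each other, with Xcr1, Ccr1l1 and Ccr3 of the list between them. Cx3cr1 (chr9:119901616-120069879, minus strand) and Ccrl2 (chr9:111054486-111057519, minus strand) lie outside that stretch. The annotated span of Cx3cr1 overlaps Gorasp1, Csrnp1 and Xirp1 on the same strand, so reads of these genes and of Cx3cr1 could be confused where exons overlap. Ccr7 is on chromosome 11 (chr11:99144196-99155077, minus strand), and Cxcr2 (chr1:74153989-74161246, plus strand) and Cxcr4 (chr1:128588199-128592293, minus strand) are on chromosome 1. All are annotated as protein-coding.

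For 7 of the 8 members RefSeq (GRCm38.p6) gave a window before the start of the gene, and Ccr7 had none. The windows were searched on both strands for GAGGAA, the core letters of sites bound by PU.1, the transcription factor of the myeloid lineage. The letters were found in 2 of the 7 members, Ccr1 and Cxcr2, and in 23.3% of 32851 windows of all genes over the same 250 bases. These 2 are printed because neutrophil-like cells had their highest level among the named classes of at least 10 cells. The bases are those before the start that lie in no annotated exon, chr9:123968693-123968942 on the minus strand for Ccr1 and chr1:74153744-74153988 on the plus strand for Cxcr2. Capitals mark the motif.
Ccr1: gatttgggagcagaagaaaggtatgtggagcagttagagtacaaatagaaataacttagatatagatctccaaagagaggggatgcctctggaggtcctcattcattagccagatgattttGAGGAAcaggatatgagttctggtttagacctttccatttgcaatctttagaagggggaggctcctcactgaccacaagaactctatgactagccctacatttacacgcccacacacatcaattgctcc
Cxcr2: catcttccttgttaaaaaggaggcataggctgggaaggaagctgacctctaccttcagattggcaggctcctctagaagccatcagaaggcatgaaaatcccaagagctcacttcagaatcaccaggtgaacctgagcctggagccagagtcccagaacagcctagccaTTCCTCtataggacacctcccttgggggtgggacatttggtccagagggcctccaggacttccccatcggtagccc
Each window holds 1 match, Ccr1 on the strand of the gene and Cxcr2 on the other. The match is a description of these letters, and the motif was picked after the levels had been seen. For Ccr2 only 17 bases of the window lay in no annotated exon, so the lack of a match in those bases says little. No such bases were at hand for Cx3cr1, so its place among the members without a match says little too. For Ccrl2 the bases came in pieces of 110 and 249.

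Over all kept cells Cx3cr1 was the most abundant member with 15715 UMIs, followed by Ccrl2 (4097), Ccr2 (1786), Ccr7 (1487), Ccr1 (662), Cxcr4 (228), Cxcr2 (214) and Cxcr6 (203). Cx3cr1 stood at 2231 CPM (interval 2194 to 2268) in library 1, 202 CPM (interval 188 to 217) in library 2 and 229.7 CPM (interval 212 to 248) in library 3. Ccr2 stood at 43.9 CPM (interval 38.9 to 49.3), 253 CPM (interval 238 to 269.6) and 179.7 CPM (interval 164 to 196) in libraries 1, 2 and 3. So library 1 was the high one for Cx3cr1 and the low one for Ccr2, and the intervals of library 1 did not overlap those of the other libraries. The share of all genes with such a gap between whole libraries was not counted. Ccr7 had 56, 1378 and 53 UMIs in libraries 1, 2 and 3, Cxcr2 had 12, 150 and 52, Cxcr4 had 32, 141 and 55, and Cxcr6 had 13, 135 and 55. Ccr1 had 236, 216 and 210 UMIs and Ccrl2 had 2556, 1083 and 458. The libraries hold different cell types, and in such sums fewer cells of a type and less RNA per cell cannot be told apart, so the levels below are given within cell types.

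**Figure D1:**
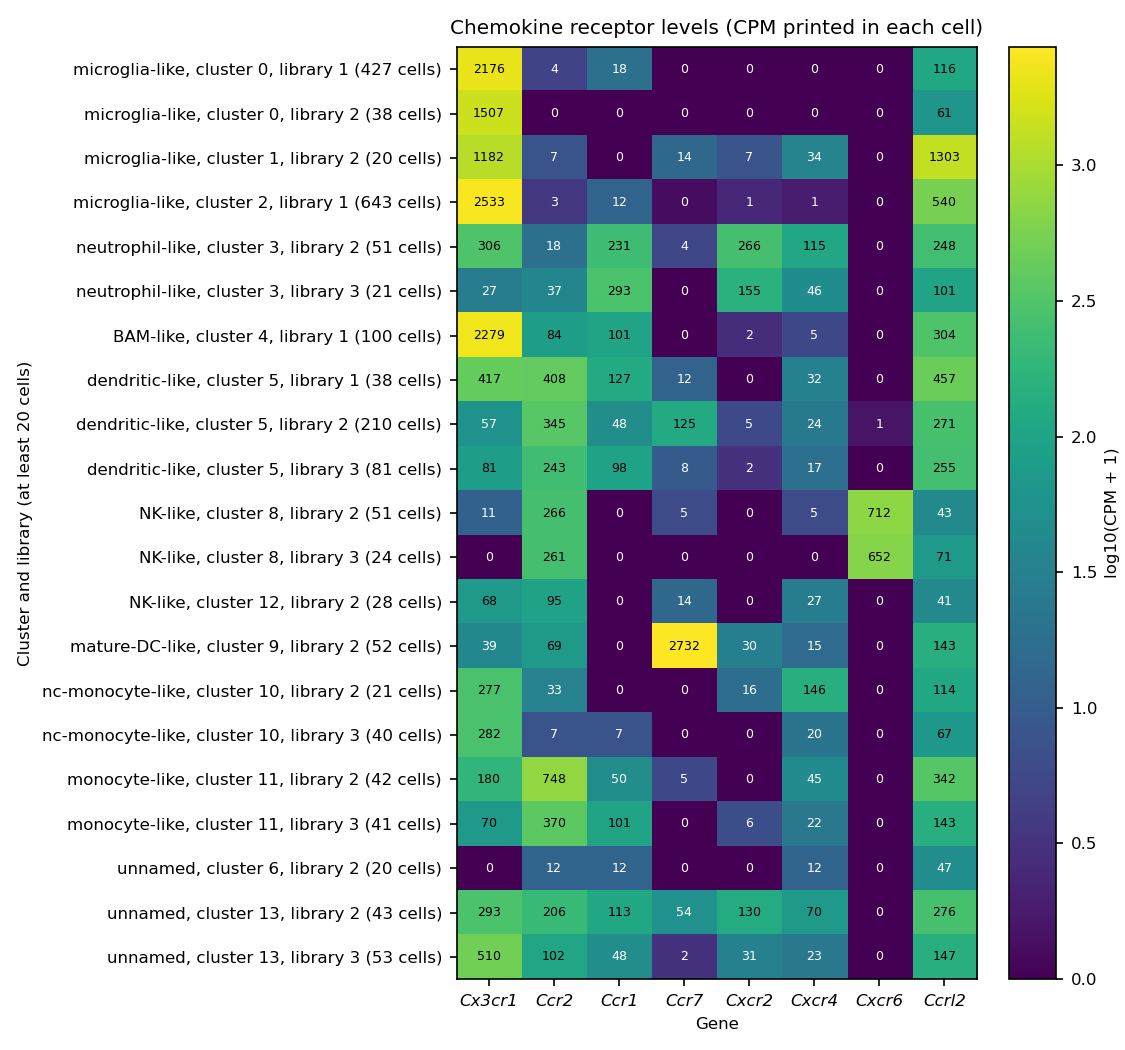
Levels of the 8 receptor genes (columns) in each cluster and library with at least 20 cells (rows), with the CPM of summed counts printed in each field and coloured on a scale of log10(CPM + 1). BAM stands for border-associated macrophage, DC for dendritic cell and nc for non-classical. Cx3cr1 fills the microglia-like and border-associated-macrophage-like rows, Cxcr6 fills the 2 rows of NK-like cluster 8 and rounds to at most 1 CPM in the other rows, and Ccr7 peaks at 2732 CPM in mature-dendritic-like cells.

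Most UMIs of Cx3cr1 came from microglia-like and macrophage-like cells. Microglia-like cells held 76.0% of its UMIs and 38.7% of all UMIs, and border-associated-macrophage-like cells held 15.7% of its UMIs and 8.27% of all UMIs. In microglia-like cells it reached 2434 CPM (interval 2389.6 to 2479) in library 1 and 1307 CPM (interval 1183 to 1440.0) in library 2. The 2 microglia-like cells of library 3 had 2 UMIs. Different clusters make up the class in the 2 libraries, mainly clusters 0 and 2 in library 1 and clusters 0 and 1 in library 2. Within cluster 0, which had 427 cells in library 1 and 38 in library 2, the level was 2176 CPM (interval 2097 to 2258) in library 1 and 1507 CPM (interval 1304 to 1733) in library 2. Cluster 2 stood at 2533 CPM (interval 2480.0 to 2587) in library 1 and cluster 1 at 1182 CPM (interval 1013 to 1371) in library 2. Library 1 was thus the higher one for Cx3cr1 both over the class and within cluster 0, without overlap of the counting intervals. The share of all genes with such a gap within cluster 0 was not counted. Cluster 0 did not stay whole at a finer clustering (Leiden resolution 1.0). There, 347 of its cells joined a cluster of 359 cells, all of library 1. Its 38 cells of library 2 all lay in a cluster led by Cst7 and Cd63, with 33 cells of library 1 and 40 of library 2. The 2 libraries may thus differ in state within cluster 0.

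After each cell had been thinned to 2000 UMIs, 979 of 1004 (97.5%, 96.3 to 98.4) microglia-like cells had a UMI of Cx3cr1 in library 1 and 55 of 59 (93.2%, 83.5 to 98.1) in library 2. A thinned microglia-like cell of library 1 held a median of 4 UMIs of Cx3cr1 and at most 14, and one of library 2 a median of 2 and at most 8. Border-associated macrophages are the macrophages of the meninges, the choroid plexus and the vessels. Cells like them had 2279 CPM (interval 2189.7 to 2370.2) of Cx3cr1 in library 1, with a UMI in 89 of 100 (89%, 81.2 to 94.4) thinned cells. All 10 microglia markers also met the rule in this cluster, and it held P2ry12, a receptor that marks microglia, at 2435 CPM against 4985 CPM in microglia-like cells of library 1, and the part of such transcripts in its Cx3cr1 was not tested. When each cell was named by itself, the 15 cells called border-associated-macrophage-like had 758 CPM of Cx3cr1.

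Non-classical monocytes patrol vessel walls and are known to carry Cx3cr1. In the cells like them, named from Ace, Treml4, Cd300e and related markers, the level was 277 CPM (interval 161 to 443) in the 21 cells of library 2 and 282 CPM (interval 203 to 381) in the 40 cells of library 3, which do not differ beyond counting error, and the 5 cells of library 1 had 8 UMIs. A UMI was found in 11 of 17 (64.7%, 38.3 to 85.8) and 18 of 39 (46.2%, 30.1 to 62.8) thinned cells of libraries 2 and 3. P2ry12 and Tmem119, which define microglia, had 0 UMIs in these cells in every library. The 10 microglia markers summed to 309 and 181 CPM in libraries 2 and 3, against 18802 CPM in microglia-like cells of library 2, and 8 of the 10 were at 0 in both libraries. The level in library 2 moved with the naming of cells, to 112 CPM in 17 cells when each cell was named by itself and to 525 CPM in 25 cells when genes were scaled to unit variance.

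Monocyte-like cells had 180.1 CPM (interval 129 to 245) of Cx3cr1 in library 2 and 70.1 CPM (interval 45.3 to 103) in library 3, and dendritic-like cells had 417 CPM (interval 352 to 491), 57.2 CPM (interval 46.9 to 69.0) and 80.6 CPM (interval 63.6 to 101) in libraries 1, 2 and 3. Neutrophil-like cells were taken as a class without Cx3cr1 and so as a measure of background. They had 995 CPM (interval 757 to 1284) in library 1, 306 CPM (interval 238 to 387) in library 2 and 27.4 CPM (interval 5.66 to 80.2) in library 3. Cx3cr1 in dendritic-like cells of library 1 came with P2ry12 at 489 CPM, against 18.4 and 6.28 CPM in libraries 2 and 3. In neutrophil-like cells P2ry12 stood at 1703, 199.6 and 0 CPM in libraries 1, 2 and 3, and the ratio of Cx3cr1 to P2ry12 UMIs in library 1 was 0.584, beside 0.488 in the microglia-like cells of that library. The 10 microglia markers together stood at 12868, 2945 and 137 CPM in neutrophil-like cells and at 3913, 585 and 596 CPM in dendritic-like cells of libraries 1, 2 and 3. Microglia transcripts thus moved with Cx3cr1 in these classes, and their part in its level was not tested.

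At a finer clustering (Leiden resolution 1.0), 19 of the 85 neutrophil-like cells fell into an unnamed cluster led by Ccl12, Cxcl10 and Lpl. The cluster that kept the name held 67 cells, with Cx3cr1 at 23.2 CPM (interval 6.32 to 59.4) in library 2 and 27.4 CPM (interval 5.66 to 80.2) in library 3, and 1 UMI in 6 cells of library 1. A UMI was found in 2 of 32 (6.25%, 0.766 to 20.8) of its thinned cells in library 2. Most Cx3cr1 of the neutrophil-like class therefore sat in the cells that split off. Against that level, Cx3cr1 of monocyte-like cells in library 2 was higher and in library 3 overlapped it. In monocyte-like cells the ratio of Cx3cr1 to P2ry12 UMIs was 10 in library 2, beside 1.02 in microglia-like cells of that library, and 3.12 in library 3. The 10 microglia markers summed to 302 and 314 CPM in monocyte-like cells of libraries 2 and 3, with Tmem119 at 0 in library 2. NK-like cells had 15 UMIs of Cx3cr1 in 13 cells of library 1, 7 in 79 cells of library 2 and 2 in 33 cells of library 3. Their P2ry12 UMIs were 39, 1 and 0 in these libraries, and the part of microglia transcripts in their Cx3cr1 was not tested.

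Ccr2 was found mainly in cells like dendritic cells and monocytes. Dendritic-like cells held 57.7% of its UMIs and 24.4% of all UMIs, and monocyte-like cells held 17.6% of its UMIs and 4.69% of all UMIs. Monocyte-like cells, named from Ly6c2, Chil3, Plac8 and related markers, had 748 CPM (interval 638 to 870.3) in library 2 and 370.0 CPM (interval 309.6 to 439) in library 3, and 17 UMIs in the 7 cells of library 1. Dendritic-like cells had 408 CPM (interval 344 to 481), 345 CPM (interval 319 to 372) and 243 CPM (interval 213 to 276) in libraries 1, 2 and 3. NK-like cells had 294 CPM (interval 161 to 493), 218 CPM (interval 165 to 282) and 217 CPM (interval 139 to 323). In library 2 the order was monocyte-like, dendritic-like, NK-like with no overlap of the intervals, while in libraries 1 and 3 dendritic-like and NK-like cells overlapped.

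Microglia-like cells had almost no Ccr2, 2.95 CPM (interval 1.61 to 4.95) from 14 UMIs in library 1 and 1 UMI in library 2. Neutrophil-like cells, taken as the class without Ccr2, had 0 UMIs in library 1 (a level of up to 50.6 CPM is possible), 17.7 CPM (interval 4.83 to 45.4) in library 2 and 36.6 CPM (interval 9.96 to 93.6) in library 3. The monocyte-like, dendritic-like and NK-like levels lay above these in libraries 2 and 3. Among thinned cells a UMI of Ccr2 was found in 29 of 42 (69.0%, 52.9 to 82.4) monocyte-like and 107 of 210 (51.0%, 44.0 to 57.9) dendritic-like cells of library 2, against 0 of 43 neutrophil-like cells, which allows up to 6.98%. Non-classical-monocyte-like cells, by contrast, had 2 and 1 UMIs of Ccr2 in libraries 2 and 3. In mature-dendritic-like cells of library 2 Ccr2 stood at 69.1 CPM (interval 45.9 to 99.8), below the 345 CPM of dendritic-like cells in the same library.

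The 100 border-associated-macrophage-like cells of library 1 had 83.8 CPM (interval 67.5 to 103) of Ccr2, and this was uneven: 29 cells held its 91 UMIs and 10 cells held 59 of them. At Leiden resolution 1.0 the cluster divided into 58 cells with 10.3 CPM (interval 4.13 to 21.2) and 42 cells that joined 58 dendritic-like cells and 3 others in a cluster led by Retnla and Mmp12, which the naming rule also called border-associated-macrophage-like. That cluster of 103 cells had 251 CPM (interval 212 to 296) in library 1, 433 CPM (interval 354 to 525) in library 2 and 312 CPM (interval 243 to 395) in library 3. No Ccr2 UMI was found in the 15 cells called border-associated-macrophage-like by their own counts. The Ccr2 level of monocyte-like cells also depended on which cells were given that name. It was 375 CPM in library 2 with no minimum of genes per cell (90 cells against 42), and in library 3 it was 191 CPM with no minimum (105 cells against 41), 188 CPM with at most 5% mitochondrial counts and 173 CPM with doublet calls kept. In dendritic-like cells of library 1 it was 270.2 CPM when each cell was named by itself.

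Set against each other, Cx3cr1 and Ccr2 told microglia-like cells of libraries 1 and 2 apart from monocyte-like, dendritic-like and NK-like cells. They did not separate all classes, since the intervals of monocyte-like, dendritic-like and NK-like cells overlapped in libraries 2 and 3. Of the UMIs of both genes together, Cx3cr1 made up 99.9% (99.8 to 99.9) in microglia-like cells of library 1 and 99.8% (98.6 to 99.99) in those of library 2. In monocyte-like cells it made up 19.4% (14.2 to 25.5) in library 2 and 15.9% (10.6 to 22.6) in library 3. Non-classical-monocyte-like cells stood with microglia-like cells at 89.5% (66.9 to 98.7) and 97.7% (87.7 to 99.9) in libraries 2 and 3. Dendritic-like cells had 50.5% (44.6 to 56.4), 14.2% (11.8 to 16.9) and 24.9% (20.2 to 30.1) in libraries 1, 2 and 3, with library 1 the high one, where P2ry12 was high in them too. NK-like cells had 51.7% (32.5 to 70.6), 10.9% (4.51 to 21.2) and 7.69% (0.946 to 25.1) in libraries 1, 2 and 3, with P2ry12 highest in library 1. Border-associated-macrophage-like cells had 96.5% (95.7 to 97.1) in library 1. Neutrophil-like cells, taken as background for both genes, stood at 100% (93.9 to 100) in library 1 and 94.5% (86.6 to 98.5) in library 2. In library 3 they had 3 UMIs of Cx3cr1 and 4 of Ccr2. The share in monocyte-like cells rested on the naming of cells, since in library 3 it was 64.0% with no minimum of genes per cell, 67.5% with at most 5% mitochondrial counts and 70.5% with doublet calls kept, settings under which 87 to 105 cells of that library were named monocyte-like.

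**Figure D2:**
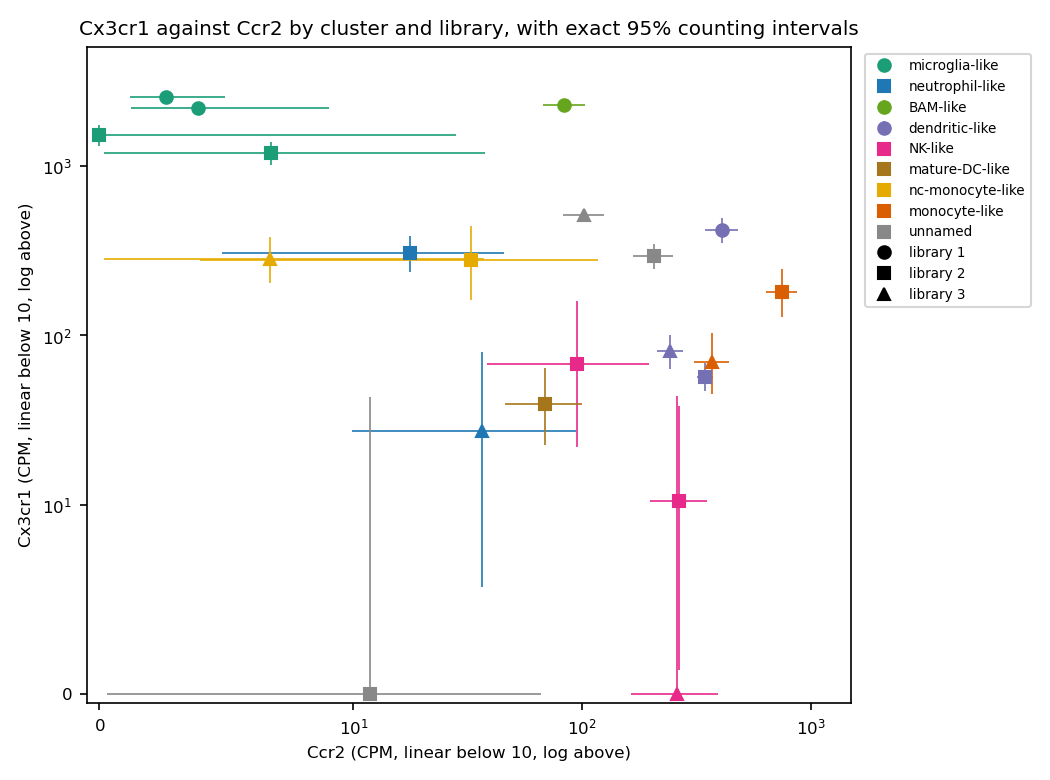
Cx3cr1 (vertical axis) against Ccr2 (horizontal axis) in CPM for each cluster and library with at least 20 cells, on axes that are linear below 10 and logarithmic above, with exact 95% counting intervals as bars, colour for the class and shape for the library. Microglia-like points lie at the upper left, with over 1000 CPM of Cx3cr1 and at most 7 CPM of Ccr2, and monocyte-like points lie at the right, with 370 and 748 CPM of Ccr2.

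Over all cells of a library the share of Cx3cr1 was 98.1% (97.8 to 98.3) in library 1, 44.4% (42.1 to 46.7) in library 2 and 56.1% (53.1 to 59.0) in library 3. The largest unnamed cluster, cluster 13, lay between the classes. Its 98 cells were led by Ccl12, Cxcl10, Lpl and Spp1 and by the cell cycle genes Birc5 and Cdca3, and had a median of 12432.5 UMIs. They passed markers of several classes, among them 6 microglia, 6 neutrophil and 4 dendritic markers. In libraries 2 and 3, P2ry12 stood at 116 and 152 CPM in this cluster and Tmem119 at 59.8 and 450 CPM. Cx3cr1 stood there at 293 CPM (interval 247 to 345) in library 2 and 509.7 CPM (interval 465 to 558) in library 3, and Ccr2 at 206 CPM (interval 168 to 251) and 102 CPM (interval 82.8 to 125). Cx3cr1 was 58.7% (52.2 to 64.9) of the 2 genes' UMIs in library 2 and 83.3% (79.9 to 86.3) in library 3. At resolution 1.0, 48 of its cells went to an unnamed cluster led by Ccl12 and Cxcl10 and 47 to an unnamed cluster led by Ifitm1, Slpi and Hdc. The former passed 8 microglia and 5 neutrophil markers, and the latter 8 neutrophil and 5 dendritic markers. In library 3 the former had 578 CPM (interval 527 to 633) of Cx3cr1 and 92.8 CPM (interval 73.0 to 116) of Ccr2, and the latter 47.4 CPM (interval 27.1 to 76.9) and 231 CPM (interval 183 to 288). These clusters, of 67 cells each, also took in cells from elsewhere, and the first had the higher level of Cx3cr1 and the second that of Ccr2.

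After thinning to 2000 UMIs, cells with both receptors were few in each named class. Among thinned monocyte-like cells, 6 of 42 (14.3%, 5.43 to 28.5) had a UMI of both in library 2 and 4 of 41 (9.76%, 2.72 to 23.1) in library 3, while 23 of 42 (54.8%, 38.7 to 70.2) and 11 of 41 (26.8%, 14.2 to 42.9) had Ccr2 alone. Without thinning the shares with both were 45.2% and 31.7%, so the share depends on depth. No thinned neutrophil-like cell had both (0 of 43 in library 2 and 0 of 21 in library 3), but a UMI of Cx3cr1 was found in 14 of 43 (32.6%, 19.1 to 48.5) of them in library 2 and in 0 of 21 in library 3. Their median depths were 3697 and 3643 UMIs, against 4824.5 and 8581 in monocyte-like cells. The share of monocyte-like cells with Cx3cr1, 8 of 42 (19.0%, 8.60 to 34.1) in library 2, was below that of the whole neutrophil-like class. It was above the 2 of 32 (6.25%, 0.766 to 20.8) of the neutrophil-like cells that kept their name at resolution 1.0, with overlapping intervals, so its place against the background depends on which cells stand for it. In library 3 it was 7 of 41 (17.1%, 7.15 to 32.1) beside 0 of 21.

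Among thinned microglia-like cells of library 1, 6 of 1004 (0.598%, 0.220 to 1.30) had both genes, and in library 2 0 of 59 did, which allows up to 5.08%. Dendritic-like cells had both in 7 of 38 (18.4%, 7.74 to 34.3) in library 1, 12 of 210 (5.71%, 2.99 to 9.77) in library 2 and 4 of 81 (4.94%, 1.36 to 12.2) in library 3. Border-associated-macrophage-like cells had both in 10 of 100 (10%, 4.90 to 17.6), and only Ccr2 in 3 of 100 (3%, 0.623 to 8.52). Non-classical-monocyte-like cells had both in 0 of 17 and 0 of 39 in libraries 2 and 3. At this depth, thinned monocyte-like cells thus most often had a UMI of Ccr2 alone in library 2. In library 3 they most often had a UMI of neither gene, in 23 of 41 (56.1%, 39.7 to 71.5). A gene without a UMI after thinning may still be expressed, so these shares describe detection and not states of the cell.

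**Figure D3:**
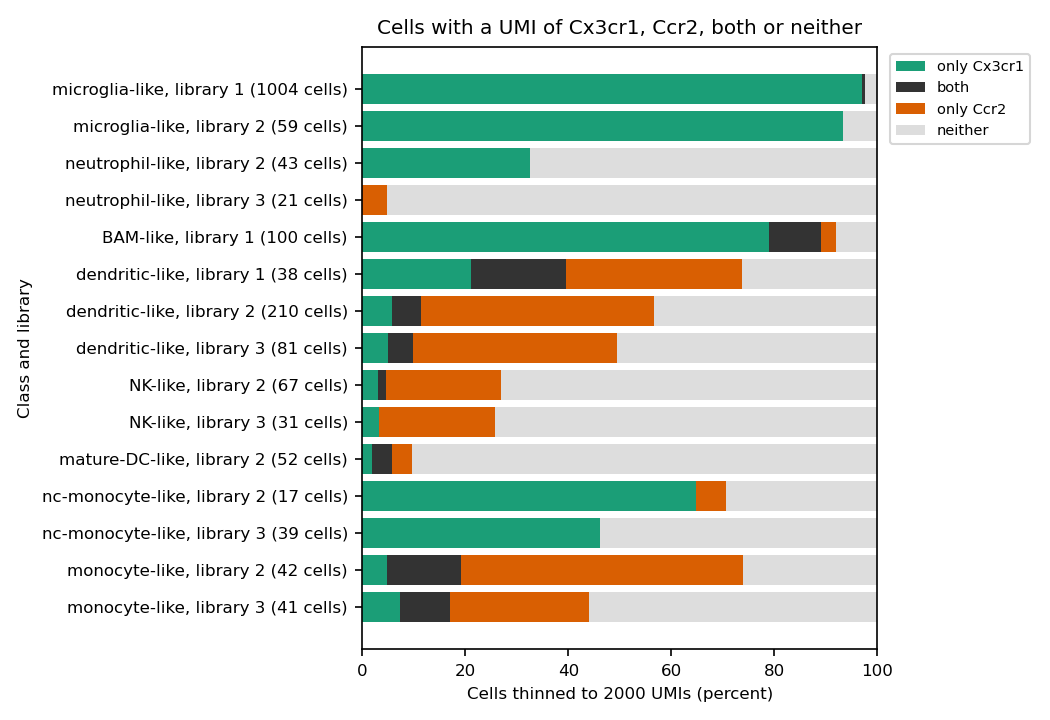
Share of cells (percent, horizontal axis) with a UMI of Cx3cr1 alone, of both genes, of Ccr2 alone or of neither, after thinning each cell to 2000 UMIs, for each named class and library with at least 17 thinned cells. Microglia-like bars are almost wholly Cx3cr1 alone (96.9% and 93.2%), and both genes together reach 18.4% at most, in dendritic-like cells of library 1.

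Among the receptors of inflammatory recruitment, Cxcr2, the receptor of Cxcl1 and Cxcl2, was highest in neutrophil-like cells. It stood at 84.3 CPM (interval 27.4 to 197) in the 13 cells of library 1, 266 CPM (interval 203 to 343) in library 2 and 155 CPM (interval 90.5 to 249) in library 3, whose interval overlapped those of the others. Microglia-like cells, taken as the class without Cxcr2, had 1.05 CPM (interval 0.342 to 2.46) in library 1 and 1 UMI in library 2. Neutrophil-like cells held 38.3% of its UMIs and unnamed cluster 13 held 43.0%, at 130.0 CPM (interval 99.9 to 166) in library 2 and 31.2 CPM (interval 20.9 to 44.9) in library 3. At resolution 1.0 these UMIs gathered in an unnamed cluster of 67 cells led by Ifitm1, Slpi, Hdc and Ptgs2, which passed 8 neutrophil, 5 monocyte and 5 dendritic markers and had 122 CPM (interval 93.5 to 157) of Cxcr2 in library 2. Mature-dendritic-like cells of library 2 had 29.6 CPM (interval 15.3 to 51.7), and dendritic-like cells 4.72 CPM (interval 2.16 to 8.96).

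Ccr1, a receptor of Ccl3, Ccl6 and Ccl9, was also highest in neutrophil-like cells under the main naming but was spread more widely. It stood there at 186 CPM (interval 92.6 to 332), 231 CPM (interval 172 to 302) and 293 CPM (interval 200.1 to 413) in libraries 1, 2 and 3, which overlap. Dendritic-like cells had 127 CPM (interval 91.9 to 169.8), 48.3 CPM (interval 38.9 to 59.2) and 98.4 CPM (interval 79.5 to 120.4), monocyte-like cells 49.5 CPM (interval 24.7 to 88.6) and 101 CPM (interval 70.7 to 139.7) in libraries 2 and 3, and border-associated-macrophage-like cells 101 CPM (interval 83.2 to 122) in library 1. NK-like cells, the class taken to lack it, had 0 UMIs in every library, which allows up to 63.0, 11.5 and 27.1 CPM in libraries 1, 2 and 3. Mature-dendritic-like cells of library 2 also had 0 UMIs, where dendritic-like cells had 92. Microglia-like cells had 13.5 CPM (interval 10.4 to 17.2) in library 1, and the 0 UMIs of library 2 leave room for a level of up to 9.59 CPM. With at least 1000 genes per cell, the neutrophil-like level was 119 CPM for Ccr1 and 142 CPM for Cxcr2 in library 2, and 147 CPM for Ccr1 in library 3. Named cell by cell, Ccr1 stood at 159.7 CPM in 42 neutrophil-like cells of library 3 and at 162 CPM in dendritic-like cells of that library. Neutrophil-like cells were thus not the higher ones under that naming. In library 1 the intervals of neutrophil-like and dendritic-like cells overlapped under the main naming too.

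Cxcr4 did not pass 146 CPM in any named class with at least 10 cells in a library. Its levels in neutrophil-like cells were 84.3 CPM (interval 27.4 to 197), 115 CPM (interval 75.3 to 169) and 45.7 CPM (interval 14.8 to 107) in libraries 1, 2 and 3. Non-classical-monocyte-like cells had 146 CPM (interval 67.0 to 278) in library 2 and 20.1 CPM (interval 4.15 to 58.9) in library 3, and monocyte-like cells 45.0 CPM (interval 21.6 to 82.8) and 22.4 CPM (interval 9.68 to 44.2). Dendritic-like cells held 31.6% of its UMIs, at 31.6 CPM (interval 15.8 to 56.6), 23.6 CPM (interval 17.2 to 31.6) and 16.8 CPM (interval 9.58 to 27.2). In microglia-like cells there were 4 UMIs in library 1 and 5 in library 2, all 5 of the latter in cluster 1. No class was taken to lack Cxcr4, so no background level is given. The 7 mast-cell-or-basophil-like cells had 7 UMIs of Ccr1, 6 of Cxcr2 and 4 of Cxcr4.

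Ccr7, the receptor that takes dendritic cells to lymph nodes, was concentrated in 1 class. Mature-dendritic-like cells held 80.8% of its UMIs and 3.35% of all UMIs. In library 2 they had 2732 CPM (interval 2574 to 2898), all 52 cells had a UMI, and a cell held from 1 to 89 UMIs with a median of 18. The 2 cells of library 1 and 3 cells of library 3 with this name had 51 and 43 UMIs. Ccr7 was left out of the clustering and of the markers, which were Fscn1, Ccl22, Cacnb3 and others of the migratory state of dendritic cells.

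Dendritic-like cells had 125 CPM (interval 109 to 142) of Ccr7 in library 2, but 11.5 CPM (interval 3.13 to 29.4) in library 1 and 8.38 CPM (interval 3.62 to 16.5) in library 3. The 238 UMIs of library 2 came from 52 of 210 cells, with 155 in the 10 highest. Neutrophil-like cells had 1 UMI of Ccr7 in all, and no UMI was found in border-associated-macrophage-like cells, which allows up to 2.76 CPM. Monocyte-like and non-classical-monocyte-like cells had 1 and 0 UMIs.

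Cxcr6 was all but confined to 1 of the 2 NK-like clusters. Cluster 8, led by Gzmc, Xcl1, Gzmb and Cd7, held 202 of its 203 UMIs, and the remaining 1 was in a dendritic-like cell of library 2. The level was 712 CPM (interval 597 to 844) in library 2 and 652 CPM (interval 491 to 848) in library 3, and the 8 cells of library 1 had 13 UMIs. A UMI was found in 29 of 48 (60.4%, 45.3 to 74.2) thinned cells of library 2 and 13 of 23 (56.5%, 34.5 to 76.8) of library 3. Cluster 12, led by Gzma, Klra4, Klra8 and Ncr1, had 0 UMIs, which allows up to 40.8 CPM in the 28 cells of library 2. Microglia-like cells, taken as the class without Cxcr6, had 0 UMIs as well, which allows up to 0.633 CPM in library 1. Both clusters passed the rule for NK cells, with 7 and 10 of 10 markers. Cluster 8 did not pass Klra8, Prf1 and Eomes. Its 10 leading genes held 1 NK marker and 1 T cell marker, Cd3g, so its name is less firm than that of cluster 12.

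The 2 NK-like clusters differed in Ccr2 as well in library 2, at 266 CPM (interval 197 to 350.4) in cluster 8 and 95.3 CPM (interval 38.3 to 196) in cluster 12. Cx3cr1 was at 10.6 CPM (interval 1.29 to 38.4) and 68.1 CPM (interval 22.1 to 159) in these clusters, with overlapping intervals. In cluster 8 the lymphocyte receptor Cxcr3 was at 197 CPM (interval 138 to 271) in library 2 and 154 CPM (interval 82.0 to 263) in library 3.

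**Figure D4:**
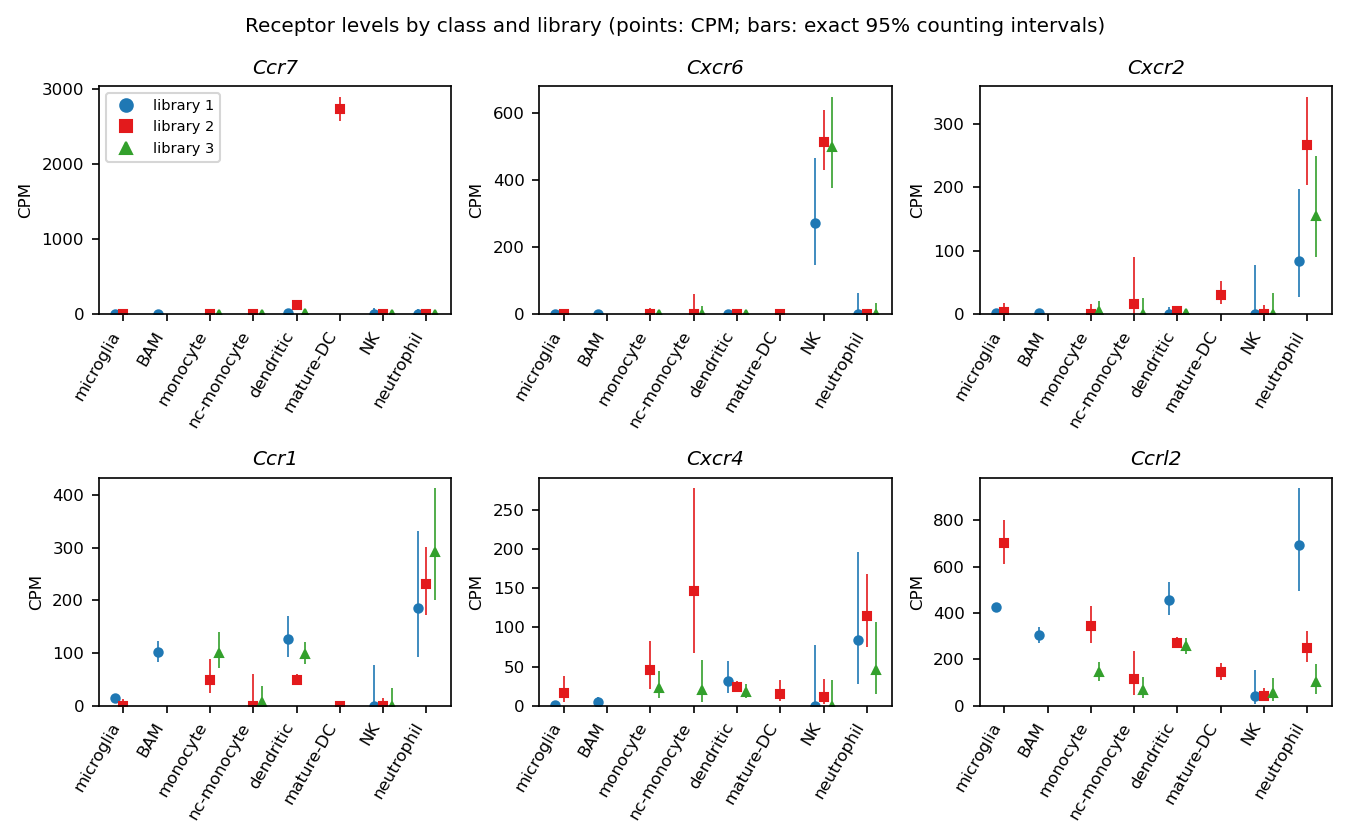
Levels of Ccr7, Cxcr6, Cxcr2, Ccr1, Cxcr4 and Ccrl2 in CPM (vertical axes, linear from 0) by class and library for classes with at least 10 cells in a library, with exact 95% counting intervals. Ccr7 stands out in mature-dendritic-like cells at 2732 CPM, Cxcr6 in NK-like cells at 273 to 512 CPM and Cxcr2 in neutrophil-like cells at 84.3 to 266 CPM, while Ccrl2 is found in most classes.

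Ccrl2 was spread over most classes, with 54.4% of its UMIs in microglia-like cells and 22.4% in dendritic-like cells. In microglia-like cells it stood at 424 CPM (interval 406 to 443) in library 1 and 703 CPM (interval 613 to 802) in library 2. This average hid large differences between clusters. Cluster 0, led by P2ry13 and P2ry12, had 116 CPM (interval 97.8 to 136) in library 1 and 61.2 CPM (interval 26.4 to 121) in library 2, which overlap. Cluster 2, led by Adamts1, Hk2 and Gem, had 539.7 CPM (interval 516 to 565) in library 1, and its 7 cells of library 2 held 19 UMIs. Cluster 1, led by Spp1, Apoe and Cst7, had 1303 CPM (interval 1126 to 1501) in library 2, where all 20 cells had a UMI with a median of 7 and a maximum of 25. So the higher class level of library 2 came with cluster 1, and in cluster 0 library 2 was not higher. The cells of cluster 0 may differ in state between the 2 libraries. At resolution 1.0 the cluster led by P2ry13 and P2ry12 held 359 cells of library 1 and 0 of library 2. The 38 cells of cluster 0 from library 2 then lay in a cluster led by Cst7 and Cd63. Cluster 1 did not stay separate at resolution 1.0. There, 20 of its cells joined 237 cells of cluster 2 in 1 microglia-like cluster, with 232 cells in library 1 and 25 in library 2. Thinned cells with a UMI were 53 of 378 (14.0%, 10.7 to 17.9) in cluster 0 and 319 of 625 (51.0%, 47.0 to 55.0) in cluster 2 of library 1, and 14 of 20 (70%, 45.7 to 88.1) in cluster 1 of library 2.

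Outside microglia, Ccrl2 stood at 304 CPM (interval 272 to 338) in border-associated-macrophage-like cells, and at 457 CPM (interval 389 to 534), 271 CPM (interval 248 to 295) and 255 CPM (interval 224 to 289.6) in dendritic-like cells of libraries 1, 2 and 3. Neutrophil-like cells had 691 CPM (interval 496 to 938), 248 CPM (interval 188 to 322) and 101 CPM (interval 50.2 to 179.9), highest in library 1, where P2ry12 was highest in them too. Monocyte-like cells had 342 CPM (interval 269.6 to 428) in library 2 and 143 CPM (interval 106 to 188) in library 3. NK-like cells, taken as the class without it, had 42.0 CPM (interval 5.08 to 152), 42.0 CPM (interval 20.99 to 75.2) and 54.2 CPM (interval 19.9 to 118), with 4 of 67 (5.97%, 1.65 to 14.6) thinned cells of library 2 at a median depth of 3092 UMIs. The levels of microglia-like, border-associated-macrophage-like and dendritic-like cells lay above these in each library in which both had at least 10 cells.

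**Figure D5:**
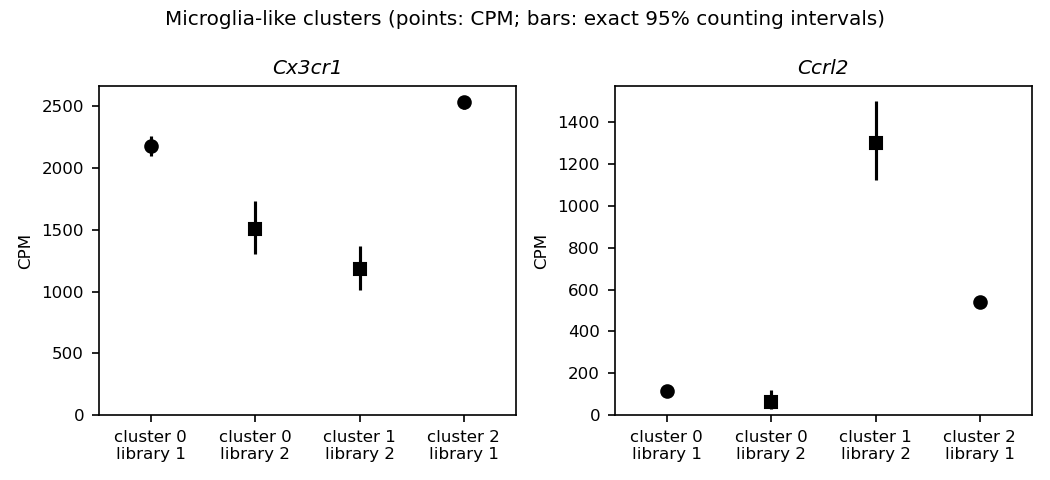
Cx3cr1 (left) and Ccrl2 (right) in CPM (vertical axes from 0) in the microglia-like clusters and libraries with at least 20 cells, with exact 95% counting intervals, circles for library 1 and squares for library 2. Cx3cr1 runs from 1182 to 2533 CPM, while Ccrl2 runs from 61.2 CPM in cluster 0 of library 2 to 1303 CPM in cluster 1.

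The same classes were next set side by side between libraries, counting genes with at least 50 UMIs in the 2 sums together as higher or lower when they differed by at least 1.5-fold with separate counting intervals. These libraries have no replicates, so the counts describe the libraries and not the study's groups. In microglia-like cells (mainly clusters 0 and 1 in library 2, 0 and 2 in library 1), of 3 members with enough UMIs, Ccrl2 was 1.66-fold higher and Cx3cr1 1.86-fold lower in library 2 than in library 1. Among all 7163 genes compared, 3.24% were higher and 9.62% lower by the same rule. In monocyte-like cells, Cx3cr1 was 2.57-fold, Ccr2 2.02-fold and Ccrl2 2.39-fold lower in library 3 than in library 2, all 3 members with enough UMIs, beside 4.66% lower and 5.25% higher of 1524 genes. The median depth of monocyte-like cells was 4824.5 UMIs in library 2 and 8581 in library 3, and the part of this in the result was not tested. The direction for Cx3cr1 turned with the cells that were named monocyte-like. It stood at 339 CPM in library 3 and 216 CPM in library 2 with no minimum of genes, at 389 and 359 CPM with at most 5% mitochondrial counts, at 412 and 235 CPM with doublet calls kept, and at 138 and 134 CPM when each cell was named by itself. Ccr2 and Ccrl2 stayed lower in library 3 under each alternative run for these levels, and Ccrl2 in library 2 was 187 CPM with receptor genes kept in the clustering.

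In dendritic-like cells 6 members had enough UMIs. Against library 2, library 3 had Ccr1 2.04-fold higher and Ccr7 14.9-fold lower, where 8.38% of 4631 genes were higher and 3.82% lower. Library 1 had Cx3cr1 7.29-fold, Ccr1 2.62-fold and Ccrl2 1.69-fold higher and Ccr7 10.9-fold lower than library 2, where 4.29% of 3936 genes were higher and 3% lower. These 2 comparisons share library 2. The 10 microglia markers in these cells stood at 3913 CPM in library 1 beside 585 CPM in library 2, with P2ry12 at 489 and 18.4 CPM, and their part in the difference was not tested. At resolution 1.0, Cx3cr1 stood at 107 CPM in 21 dendritic-like cells of library 1 and 32.3 CPM in library 2. The directions of these members were the same under each alternative run. Ccr2 passed the rule in neither comparison. In neutrophil-like cells, Cx3cr1 was 11.2-fold and Ccrl2 2.47-fold lower in library 3 than in library 2, 2 of 4 members, beside 24.6% lower and 3.85% higher of 650 genes. The 10 microglia markers stood at 137 and 2945 CPM in these cells in libraries 3 and 2, and their part in this difference was not tested. At resolution 1.0 Cx3cr1 was at 27.4 CPM in library 3 and 23.2 CPM in library 2, with at least 1000 genes per cell at 63.1 and 50.4 CPM, and named cell by cell at 229 and 226 CPM, so the lower level of library 3 did not hold there. Ccrl2 was higher in library 3 with at least 1000 genes per cell, at 231 against 195 CPM. Between libraries 3 and 2, neither of 2 members in NK-like cells nor the 1 member compared in non-classical-monocyte-like cells passed the rule. There 2.13% of 984 and 3.54% of 593 genes were higher, and 1.32% and 2.19% lower.

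Among the other genes of the receptor list with at least 20 UMIs, Cxcr3 had 117 UMIs and was described above in NK-like cluster 8. Xcr1, a marker of cross-presenting dendritic cells, was at 22.0 CPM (interval 15.9 to 29.8) in dendritic-like cells of library 2 and had 103 UMIs in all.

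The ligands of these receptors were drawn from a list of 20 genes, of which 18 had UMIs. The most abundant were Ccl4, Ccl5 and Ccl3. Over the 3 libraries and among clusters of at least 10 cells, Ccl4 and Ccl3, the latter a ligand of Ccr1, were highest in microglia-like cluster 1 at 8553 CPM (interval 8095 to 9030.0) and 5468 CPM (interval 5103 to 5852). This small cluster did not stay separate from cluster 2 at resolution 1.0. Ccl5 reached 29873 CPM (interval 29364 to 30388) in mature-dendritic-like cells and 27152 CPM (interval 26217 to 28111) in NK-like cluster 12. The Ccr2 ligands Ccl2 and Ccl12 were highest in unnamed cluster 13, at 631 CPM (interval 591 to 674) and 3149 CPM (interval 3058 to 3243), where Ccl2 overlapped the 628 CPM (interval 582 to 677) of border-associated-macrophage-like cells, and Ccl7 was highest in the latter, at 505 CPM (interval 464 to 549.5). Cxcl16, the ligand of Cxcr6, was highest in mature-dendritic-like cells at 1224 CPM (interval 1123 to 1332). Cxcl2, a ligand of Cxcr2, was highest in neutrophil-like cells themselves, at 1208 CPM (interval 1102 to 1321). Cxcl12, the ligand of Cxcr4, was highest in unnamed cluster 6, led by Ttr and Ptgds, at 468 CPM (interval 372 to 581). Rarres2, the chemerin gene, was at 108 CPM (interval 65.3 to 169) there, and unnamed cluster 14, which is led by Ccdc153 and Tmem212, held 115 UMIs of it in 8 cells. Cx3cl1 had 7 UMIs in cluster 6 and 14 in mature-dendritic-like cells, and Ccl19, a ligand of Ccr7, had 1 UMI each in cluster 6 and in dendritic-like cells.

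In microglia-like cells of library 2 against library 1, 9 ligands had enough UMIs, of which 7 were higher (Ccl2, Ccl12, Ccl3, Ccl4, Ccl5, Ccl6 and Cxcl16) and Cxcl2 was lower, with a median log2 difference of 1.25 beside -0.36 over all genes compared, of which 3.24% were higher and 9.62% lower. The 2 cell groups differ in their clusters, since cluster 1 is almost wholly of library 2. Of 18 genes of receptor signalling, among them G proteins, arrestins, kinases that silence receptors and Rgs genes, 16 had enough UMIs. None was higher, and Gnb1, Arrb2, Rgs2 and Elmo1 were lower, with a median of -0.47. In monocyte-like cells of library 3 against library 2, 2 of 6 ligands were higher (Ccl2 and Cxcl2) and 2 lower (Ccl3 and Ccl6), beside 5.25% higher and 4.66% lower of all genes, and none of 6 signalling genes passed. In dendritic-like cells 4 of 10 ligands were higher in library 3 than in library 2 (Ccl2, Ccl7, Ccl12 and Cxcl2), 3 were lower (Ccl3, Ccl4 and Ccl5), beside 8.38% higher and 3.82% lower of all genes, and none of 15 signalling genes passed. Against library 2, dendritic-like cells of library 1 had 1 of 8 ligands higher (Ccl2), 1 lower (Ccl5) and none of 13 signalling genes past the rule, beside 4.29% higher and 3% lower of all genes. In neutrophil-like cells all 4 ligands compared (Ccl3, Ccl4, Ccl6 and Cxcl2) and 3 of 7 signalling genes (Rgs1, Rgs2 and Rgs10) were lower in library 3 than in library 2, beside 24.6% lower of all genes. The 10 microglia markers stood at 137 and 2945 CPM in these cells of libraries 3 and 2. At resolution 1.0 the neutrophil-like cluster held 21 and 40 cells of these libraries, against 21 and 51 here. The part of either in these counts was not tested. In NK-like cells none of 3 ligands or 5 signalling genes passed, and in non-classical-monocyte-like cells Rac2 was higher in library 3, 1 of 4 signalling genes, with the 1 ligand not past the rule. The most abundant signalling genes were Rgs10, Gnai2 and Gnb2. Rgs10, a brake on G-protein signalling that is known from microglia, stood at 1731 CPM (interval 1688 to 1776) in microglia-like cluster 2 and 1715 CPM (interval 1648 to 1784) in cluster 0. Gnai2, the main G protein of these receptors in leukocytes, stood at 771 CPM (interval 726 to 818) in unnamed cluster 13, 739 CPM (interval 689 to 792) in border-associated-macrophage-like cells and 719 CPM (interval 614 to 837) in non-classical-monocyte-like cells, which overlap.

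Across 21 pairs of cluster and library with at least 20 cells, the gene most like each member was found by Pearson's correlation of log2(CPM + 10) among 5978 genes with at least 200 UMIs. These points share libraries, depth and cell types, so the values are a description. Cx3cr1 was most like Csf1r (0.97), the receptor that PLX5622 blocks, then Sirpa and Zeb2os (0.93 each). Ccr2 was most like Iqgap2 (0.87), Itgb7 and S100a10 (0.85 each), and Ccr1 most like Cxcl2 (0.84), Cd300lf (0.82) and Il1r2 (0.80). Ccr7 was closest to Ccl22 and Zmynd15 (0.92 each) and Tbc1d4 (0.91), where Ccl22 is also one of the markers that named its class. Cxcr2 was closest to Hdc (0.94), Gm5483 (0.93) and Mmp9 (0.91), and Cxcr4 to D8Ertd738e (0.81), Il1b (0.80) and Clec4d (0.78). Cxcr6 was closest to Gzmc (0.99), Xcl1 (0.89) and Cd7 (0.87), genes that lead NK-like cluster 8, and Ccrl2 to the immediate early and feedback genes Atf3 (0.85), Zfp36 and Nfkbia (0.84 each). Among the members themselves the highest value was 0.63, between Cxcr2 and Cxcr4, and Cx3cr1 and Ccr2 stood at -0.44.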

How the data were processed

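Cells of 3 samples, 1 per group, were sequenced as single-cell libraries with 10x Chromium 3′ v2 chemistry, per the labels. The values deposited by the authors are raw UMI counts per gene and cell in 1 matrix, made with Cell Ranger 2.0.1 on mm10 per the submitters' processing notes; cell filters, pooling and strand settings are not given in the sources used here. All 27998 genes and 2149 cells were read. Cells with under 500 genes or over 10% mitochondrial counts were removed (5 cells), then doublets called per library with Scrublet (9 of 2144 cells, 0.42%, a low yield for which doublets may remain). Counts were scaled to 10000 per cell, logged, and clustered (2000 variable genes without the 24 receptor genes, 30 components, 15 neighbours, Leiden resolution 0.5) with scanpy 1.11.5, igraph 0.11.9 and Python 3.11.15.

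A marker counted for a cluster when at least 30% of its cells had a UMI and its level was at least 2-fold the median over clusters. A class needed at least 3 markers and took the name when it had the most markers among the 10 genes of highest fold. With none there, it had to pass over 50% of its list and at least 2-fold the count of any other class. Clusters under 1 in 3 of their library's median depth with no leading marker stayed unnamed. This naming rule, and the use of unscaled genes, were settled after clusters had been seen. Names are rebuilt here, so they may differ from those of the study. The members and gene lists were chosen with earlier results of these data known.

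Levels are counts summed per class and library, per 1000000 counts (CPM), with exact Poisson intervals (95%). Shares have exact Clopper-Pearson intervals (95%) after thinning each cell to 2000 UMIs, which left out 71, 31 and 4 shallower cells of libraries 1, 2 and 3. A count of 0 is given the limit of 3 counts. Classes or clusters under 10 cells in a library are given as UMIs only. Named genes are the members, other receptors with at least 20 UMIs (not all are reported here), the 3 genes most like each member, the 3 most abundant ligands and signalling genes, and ligands of members; lists that passed a comparison, leading genes and markers were named as well. The similarity and contrast steps were tested on simulated counts. Where genes overlap on a strand, shared reads could not be assigned here. Alternatives were each cell named by itself, other filters and thinning depths, doublets kept, scaled genes and resolution 1.0. Positions come from GENCODE M21 (GRCm38).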

Additional observations from a re-analysis of the deposited data

How the results depend on the processing

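Of 76 alternative values of the shares of Cx3cr1 and of cells with a UMI (8 results), 51 stayed within the counting interval and 25 moved beyond it. Of 387 alternative values of 43 receptor levels, 285 stayed and 102 moved. These results have no test, so no call could be lost, and the cause of each shift was not tested unless stated. The Cx3cr1 share of both receptors in microglia-like cells was 99.1% in library 1 and 95.2% in library 2 when each cell was named by itself, 99.5% and 85.4% with at least 1000 genes per cell, and 99.7% in library 1 with genes scaled to unit variance. In monocyte-like cells it was 36.5% in library 2 and 64.0% in library 3 with no minimum of genes, 35.4% and 67.5% with at most 5% mitochondrial counts, 25.9% and 70.5% with doublet calls kept, 27.6% and 23.2% with scaled genes, and 34.0% in library 3 when each cell was named by itself. Monocyte-like cells with both receptors came to 0% in library 3 with at least 1000 genes, 4.76% and 2.44% in libraries 2 and 3 when thinned to 1000 UMIs, and 45.2% and 31.7% without thinning. Microglia-like cells with Cx3cr1 came to 87.7% and 73.8% in libraries 1 and 2 when thinned to 1000 UMIs, 99.3% and 100% without thinning, and in library 2 83% with at least 1000 genes and 83.1% with at most 5% mitochondrial counts. Thinning changes the depth by construction. The scaled genes were chosen after seeing the data. Leaving out a replicate was not possible with 1 library per group. No paired analysis was possible because each group has 1 sample and the barcode endings are not tied to groups. In classes of 10 to 40 cells, a level of a rare receptor rests on few UMIs, and a count of 0 allows up to 63.0 CPM in the 13 NK-like cells of library 1.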
